A study of Homo sapiens with 28 samples.

Results

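The regions described here are the CTD sites gained after UV, that is, places where all 3 UV-treated replicates of a ChIP-seq experiment on the carboxy-terminal domain (CTD) of ASH1L had a called peak and none of the 3 unirradiated replicates did. Overlapping peaks of the 3 replicates taken 3 h after UV were merged, merged sites with a peak of every replicate were kept, and a site was then discarded if it shared at least 1 bp with any peak of any replicate without UV. Of the 85187 such 3-replicate sites at 3 h, 10337 were selected by this rule, which is 12.1%. The same rule with the conditions exchanged gave 8899 lost sites out of 67340 3-replicate sites without UV, which is 13.2%. The remaining 74850 sites at 3 h and 58441 sites without UV overlapped a peak of the other condition and are called kept sites. Sites inside the ASH1L gene itself (16 at 3 h and 17 without UV) were left out, since the transfected construct carries part of that gene. Because the peak lists chose the sites, the counts, widths and enrichments in these lists are descriptions and were not tested.

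ASH1L is a histone methyltransferase that places the dimethyl mark on lysine 36 of histone H3 (H3K36me2), and its CTD comprises the catalytic SET domain, a PHD finger that reads methylated histone H3, a BAH domain and the motif that binds MRG15. MRG15 is a cofactor that stimulates the enzyme. UV-C light joins adjacent pyrimidine bases into cyclobutane dimers and 6-4 photoproducts, which human cells remove by nucleotide excision repair. In global-genome repair these lesions are found by DDB2 and XPC before the TFIIH helicase complex opens the DNA.

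The CTD with a Flag tag, driven by a CMV promoter, was transiently transfected into ASH1L-/- U2OS cells, an osteosarcoma line in which ASH1L had been deleted by CRISPR/Cas9 and colonies isolated. Chromatin was taken with anti-Flag antibodies either without irradiation (CTD no UV, n = 3 replicates) or 3 h after 20 J/m2 UV-C (CTD 3 h, n = 3), beside ASH1L-/- cells with empty vector as the control. The control libraries were pooled at 3 h and matched one to one without UV, so the condition and the form of the control cannot be told apart. H3K36me2 was profiled in wild-type U2OS cells without UV and 3 h after the same dose, with 2 peak lists per condition, and these 4 lists played no part in choosing the sites. The labels call the replicates biological without naming separate cultures, so p-values measure the spread between these samples.

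Each of the 6 CTD lists held 500000 broad peaks, ranked by the strength of the call, and carried no read depth. Most listed peaks were weaker than a −log10 p of 2, the cutoff stated for the calling, and why every list ends at the same number is not given in the sources used here, so a site without a peak is one without a listed peak. The weakest peaks listed had a −log10 p between 1.22 and 1.35, and between 29323 and 42078 peaks per list reached a −log10 p of 2. A list covered between 9.23% and 11.5% of the 2911 Mbp of ungapped sequence (302.5, 288.9 and 315.2 Mbp at 3 h, and 333.8, 288.4 and 268.7 Mbp without UV, for replicates 1, 2 and 3). Mean GC content of the peaks set 2 lists apart, with 47.1% in replicate 3 at 3 h and 46.9% in replicate 1 without UV against 44.04% to 45.1% in the other 4. Replicate 2 without UV also stood apart over ASH1L, where its highest fold enrichment was 5.87 against 18.1 to 41.2 in the other 5 lists. With that list left out, fewer lists must hold or lack a peak, and there were 18646 gained and 29180 lost sites. The turn was not particular to that list. Without replicate 1 of the lists without UV there were 21605 gained and 31149 lost sites, and without replicate 3 there were 17787 and 30116.

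The gained sites were ranked by the fold enrichment in their weakest replicate, and 1 of the first 6 is shown as an example of the DNA under such a site. It is the 5th of the ranking, lies outside protein-coding genes and is the 200 bp around the site's centre. The sequence is hg38, plus strand, 5′ to 3′, with TTTT and AAAA in capitals, because neighbouring thymines on either strand are the bases that UV joins most readily.
gained site 5, chr4:36848401-36848600: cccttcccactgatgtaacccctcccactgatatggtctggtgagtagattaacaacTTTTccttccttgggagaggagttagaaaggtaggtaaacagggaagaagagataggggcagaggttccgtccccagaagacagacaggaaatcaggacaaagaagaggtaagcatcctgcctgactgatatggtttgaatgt
It held 4 bases in capitals, 1 CG and a GC content of 47.5%. Site 1 of the ranking lay in an intron of WDPCP, a planar cell polarity effector needed for cilia, and sites 2 to 6 lay outside protein-coding genes.

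At these strongest sites the enrichment was modest in each replicate. Fold enrichment, the ratio of ChIP to control at the highest peak of the site, was 2.341, 2.204 and 2.394 in replicates 1, 2 and 3 at site 1. The values were 2.19, 2.16 and 2.21 at site 2, and 2.485, 2.205 and 2.143 at site 3. The nearest peak of any unirradiated list was 252 bp from site 1, 205 bp from site 2 and 3 bp from site 3. Sites 4, 5 and 6 had weakest-replicate values of 2.14, 2.12 and 2.11, and lay 1365, 338 and 1222 bp from the nearest peak without UV. The 7th, 8th and 10th sites of this ranking were in introns of PDE11A (a cyclic nucleotide phosphodiesterase, weakest replicate 2.10), DGKB (a diacylglycerol kinase, 2.09) and LEPR (the leptin receptor, 2.07). The 9th was outside protein-coding genes, with 2.08 in its weakest replicate. For comparison, the strongest lost site had values of 2.17, 2.10 and 2.68, and the next 4 had weakest-replicate values between 2.06 and 2.09. Among these 4 were introns of VRTN and of AGO4, an Argonaute protein that binds small RNAs. In their weakest replicate, the 10 gained sites thus ran from 2.07 to 2.204 and the 5 lost sites from 2.06 to 2.10. Gained sites 1 to 6 were above the strongest lost site on this value.

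**Figure D1:**
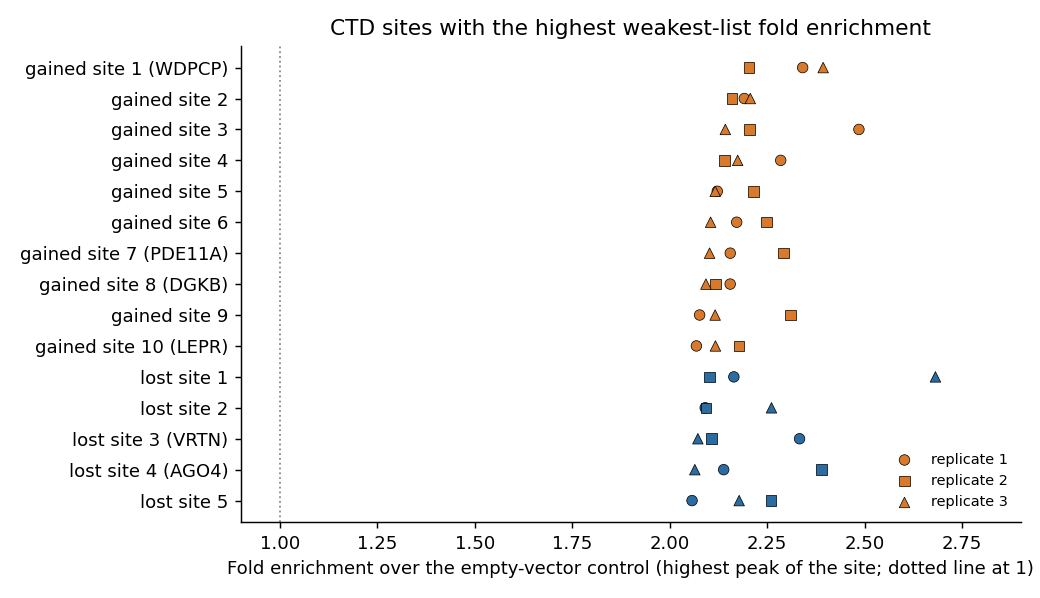
Fold enrichment over the empty-vector control (x axis, linear) in each of 3 replicates (marker shape) for the 10 gained sites (orange, 3 h lists) and 5 lost sites (blue, no-UV lists) with the highest weakest-replicate value. Weakest-replicate values run from 2.07 to 2.204 for gained sites and from 2.06 to 2.10 for lost sites, and the dotted line marks a ratio of 1.

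Over the whole set, gained sites were weak and narrow. Their weakest-replicate fold enrichment had a median of 1.72 and a maximum of 2.204, against 1.69 and 2.10 for lost sites and 1.72 and 2.28 for kept sites at 3 h. In the single lists, the median fold enrichment of gained sites was 1.81, 1.81 and 1.78 for replicates 1, 2 and 3. A −log10 p of 2 in all 3 replicates was reached by 14 gained sites, 0.135% of them, and by 10 lost sites, 0.112%. The median width was 1123 bp (quartiles 817 and 1540 bp) for gained, 1155 bp for lost and 1700 bp for kept sites at 3 h. The rule favours narrow sites, because a wider site meets a peak of the other condition more easily. In 6969 gained sites, 67.4%, at least 1 base lay in peaks of all 3 replicates, with a median of 175 such bases, and in the others the peaks were chained by overlaps between pairs of lists. The corresponding share was 59.96% in lost sites.

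Most gained sites had an unirradiated peak close by. The nearest one lay at a median distance of 512 bp (quartiles 229 and 971 bp), and 2480 gained sites, 24.0%, were at least 1 kb from any. For lost sites the median distance to a 3 h peak was 531 bp, and 26.0% were at least 1 kb away. Right at the border of the rule, 674 gained sites had an unirradiated peak less than 50 bp away, and 779 sites were discarded for an overlap of at most 50 bp. Median weakest-replicate fold enrichment was 1.72 in both of these border groups. Lists of one condition together covered 25.4% (3 h) and 25.9% (no UV) of the ungapped sequence.

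Whether a gained site recurs in a replicate that did not choose it was examined by holding out one replicate number in turn. Sites were made from the other 2 replicates of each condition by the same rule and looked up in the held-out list of both conditions, and the 3 resulting site sets share libraries. With replicate 1 held out, 41.3% of 57852 gained sites had a peak in the held-out 3 h list and 43.0% in the held-out list without UV. The shares were 41.6% and 36.7% of 49251 sites for replicate 2, and 39.4% and 34.2% of 49476 sites for replicate 3. The 3 h list was thus ahead for replicates 2 and 3 and behind for replicate 1, and the ranges of the conditions overlapped. On average 40.8% ± 1.18 (SD, n = 3) of gained sites recurred at 3 h and 38.0% ± 4.50 (n = 3) without UV, a difference of 2.82 percentage points (two-sided exact permutation test, p = 0.4, smallest possible 0.1).

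Lost sites were put through the mirror test. Their held-out shares were 35.5%, 35.98% and 34.6% in the lists without UV and 32.2%, 33.5% and 41.2% in the 3 h lists, for replicates 1, 2 and 3. The means were 35.4% ± 0.705 and 35.7% ± 4.86 (SD, n = 3 each), and the difference of −0.301 percentage points was within the spread between replicates (exact permutation test, p = 1). The lists that ran against the direction of the rule were replicate 1 without UV and replicate 3 at 3 h. They are the lists with the highest GC content and the widest coverage of their conditions, and the part of either in the held-out shares was not tested. When every list was shortened to the same 268.7 Mbp, the gained-site difference was 2.14, 4.64 and 0.662 percentage points for replicates 1, 2 and 3 (mean 2.48, exact permutation p = 0.3). The lost-site difference was then −0.323, 2.21 and −1.97 points.

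**Figure D2:**
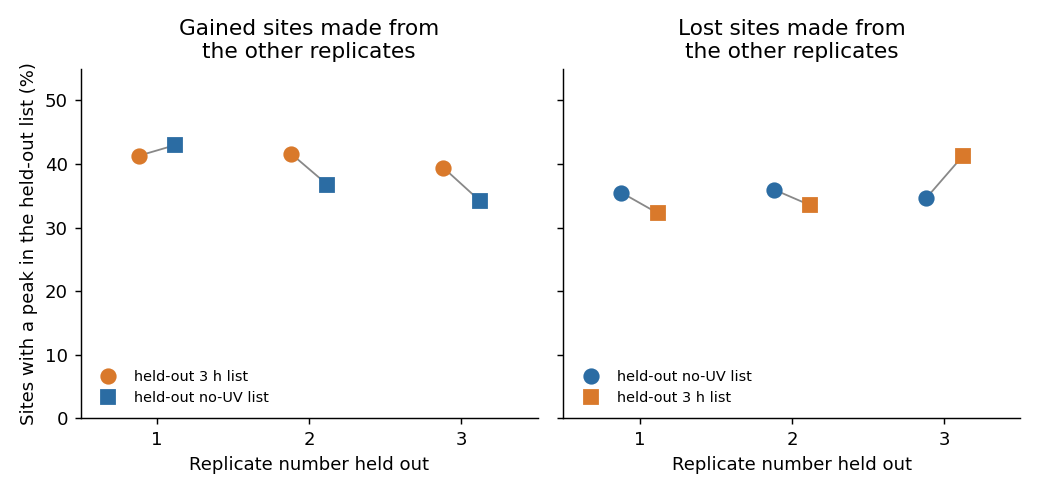
Share of sites (y axis, percent) with a peak in the held-out list, for gained (left) and lost (right) sites made from the other 2 replicates, with circles for the held-out list of the condition that defined the sites and squares for the other condition. Circles sit above squares for replicates 2 and 3 in gained sites and for replicates 1 and 2 in lost sites, and below them in the remaining pair of each panel.

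Asking whether the centre of a site fell inside a held-out peak allowed a comparison with the genome. Centres of gained sites were inside a held-out 3 h peak in 20.9%, 21.0% and 19.9% of cases, and inside a held-out peak without UV in 21.9%, 16.8% and 14.8%, for replicates 1, 2 and 3. These shares stood above the 9.23% to 11.5% of ungapped bases that a single CTD list covered. Sites absent from 2 unirradiated lists were therefore found in the remaining one more often than its coverage of the genome.

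H3K36me2 offered a measure that the rule had not used. The centre of a gained site lay in an H3K36me2 peak in 25.3% and 26.2% of cases in the 2 lists at 3 h, and in 28.9% and 27.1% in the 2 lists without UV. Both 3 h values were below both values without UV. The means were 25.7% ± 0.622 and 28.0% ± 1.23 (SD, n = 2 each), a difference of −2.27 percentage points for which a two-sided exact permutation test gave p = 0.333, the smallest value 2 lists against 2 allow. The H3K36me2 lists at 3 h also covered less of the genome, with 13.8% and 14.2% of ungapped bases against 15.7% and 15.2%. Divided by this coverage, the share on gained sites was 1.84 ± 0.00307 at 3 h and 1.81 ± 0.0308 without UV.

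Taken over the whole genome, lost sites carried H3K36me2 peaks slightly more often, an order that turned within gene bodies. Their shares were 25.7% and 26.5% at 3 h and 29.6% and 28.5% without UV, which placed gained sites below lost sites in 4 of 4 lists, with differences from −1.34 to −0.340 percentage points (mean −0.691 ± 0.462 SD, exact sign-flip permutation test over 4 lists, p = 0.13, the smallest possible). The gap between the sets averaged −0.359 points at 3 h and −1.02 points without UV (exact permutation test of this change, p = 0.333). Kept sites at 3 h had 25.1% and 26.1% in the lists after UV and 31.0% and 30.5% in those without, a difference of −5.13 points (exact permutation test, p = 0.333). Gained minus kept sites was thus 0.109 ± 0.0775 points at 3 h and −2.75 ± 0.934 points without UV (SD, n = 2 each), and this change too had the smallest possible exact permutation p of 0.333. Relative to the coverage of each list, kept sites went from 1.99 ± 0.0345 without UV to 1.83 ± 0.00878 at 3 h (SD, n = 2 each). Compared within lists, gained minus kept sites averaged −1.32 points and was negative in 2 of 4 lists (exact sign-flip permutation test, p = 0.5).

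**Figure D3:**
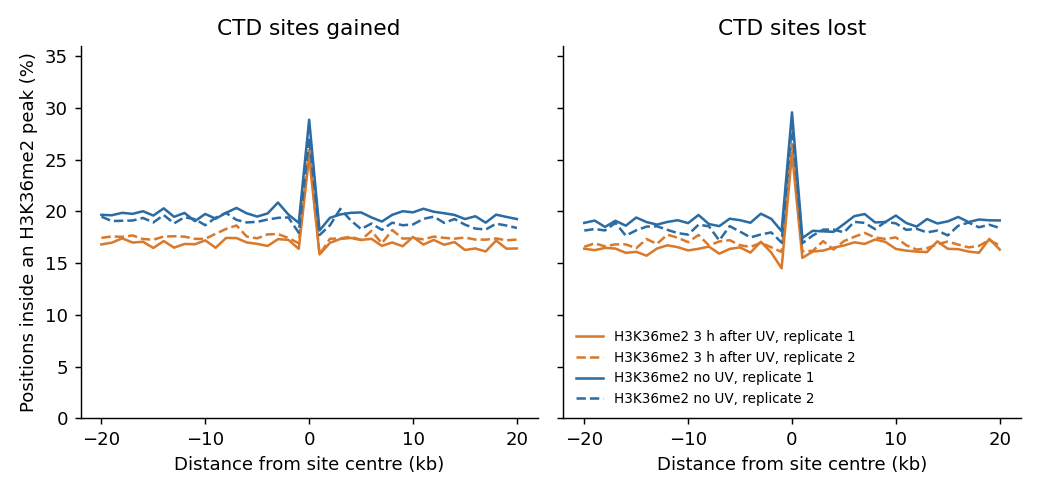
Share of positions (y axis, percent) inside an H3K36me2 peak at 1-kb steps from the centre of gained (left) and lost (right) sites, with 1 line per H3K36me2 list. Each line has a single narrow maximum at the centre (25.3% to 28.9% for gained sites). Lines are drawn to 20 kb on either side. Their values 1 kb away are below the averages between 20 and 50 kb, a range that is not drawn beyond 20 kb.

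The H3K36me2 signal around gained sites was narrow. At 1 kb either side of the centre the share had fallen to 16.1% and 16.4% at 3 h and to 18.5% and 17.8% without UV, slightly under the averages of 16.7%, 17.2%, 19.4% and 18.8% between 20 and 50 kb away. The excess at the centre over these distant positions was 8.63, 8.95, 9.46 and 8.36 percentage points in the 4 lists for gained sites, and 9.24 to 10.6 points for lost sites. Kept sites, which are wider, still had 18.3% to 23.02% at 1 kb.

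By position relative to genes, gained sites were spread much like lost ones. Within 1 kb of a protein-coding start were 201 gained sites, 1.94%, or 5.48 per Mbp. Gene bodies held 5112 (49.5%, 3.995 per Mbp), of which 401 were centred in exons and 4711 in introns, and 5024 (48.6%, 3.15 per Mbp) were intergenic, 1438 of them within long noncoding RNA genes. Lost sites had 1.88% at promoters, 49.1% in gene bodies and 49.0% between genes. Promoters held a larger share of kept sites, 3.16% at 3 h. Of the 3-replicate sites at 3 h, 7.83% were gained at promoters and 12.9% between genes, against 12.1% overall. The corresponding lost shares of sites without UV were 8.60%, 13.9% and 13.2%. The lower promoter share thus appeared in both directions. Along the 6778 protein-coding genes of at least 50 kb, 5 equal segments from start to end held 20.6%, 19.1%, 20.0%, 19.8% and 20.5% of the gained sites within them.

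H3K36me2 differed more between these compartments than between the sets. In gene bodies gained sites were above lost sites in 4 of 4 lists, with 21.3% and 21.2% at 3 h and 24.2% and 23.5% without UV against 19.97%, 20.4%, 23.6% and 23.4%. Between genes lost sites, with 31.9%, 33.3%, 36.1% and 34.2%, were above gained sites in 4 of 4 lists. In introns, 22.2% and 22.1% of gained centres were in H3K36me2 peaks at 3 h and 24.98% and 23.97% without UV. Lost centres in introns had 20.7%, 21.3%, 24.4% and 24.1%, so that in replicate 2 without UV lost sites were slightly above gained sites. Between genes the gained values were 29.9%, 31.7%, 33.997% and 31.3%, and in exons 11.0%, 11.2%, 15.2% and 17.7%, in the same order of lists. Promoter sites had 10.4% and 14.4% at 3 h and 18.9% and 14.4% without UV, each from 201 sites.

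The 200 bp around gained centres were richer in GC than the genome. Their median was 45% (quartiles 39.5% and 50.5%), the same median as lost sites, against 47.0% for kept sites at 3 h and 40% over all 14555311 ungapped, non-overlapping 200-bp windows. A GC content under 30% was found in 2.31% of gained sites and in 10.4% of all windows. TTTT, searched on both strands, occurred in 87.9% of gained, 87.3% of lost and 83.3% of kept 3 h windows, and in 91.7% of all windows. CG occurred in 80.0% of gained and 79.7% of lost windows against 72.0% of all windows. The telomere-type repeat unit TTAGGG, on either strand, was in 7.27% of gained, 7.44% of lost and 6.89% of all windows. In each of these measures gained sites lay nearer to lost sites than to all windows.

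H3K36me2 peaks were less frequent at low GC in both sets. Among gained sites under 35% GC, 10.4% and 10.5% of centres were marked at 3 h and 9.70% and 8.76% without UV, and among those of at least 50% GC the values were 29.8%, 32.6%, 39.4% and 39.9%. The rise did not run through all classes, since gained sites between 45% and 50% GC had 31.9%, 31.9%, 34.97% and 34.02%, the first of which is above the value at higher GC. Lost sites of at least 50% GC had 31.4%, 33.3%, 39.9% and 40.4%. In that upper class the 3 h lists were below those without UV in both sets, whereas under 35% GC both 3 h values of gained sites were above both values without UV. Lost sites under 35% GC had no such order, with 10.0% and 9.22% at 3 h and 10.6% and 8.91% without UV. Nor had gained sites between 35% and 40% GC, with 17.7% and 17.6% at 3 h and 18.0% and 14.7% without UV.

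Across chromosomes, gained sites averaged 3.55 per Mbp and lost sites 3.06 per Mbp. Chromosome 2 was densest with 4.74 gained per Mbp (1141 sites), followed by chromosome 15 with 4.65 and chromosome 20 with 4.61. Chromosome X had 0.704 per Mbp (109 sites) and chromosome 13 had 1.92 (188 sites). As a share of the 3-replicate sites at 3 h, however, gained sites were highest there, with 21.7% on X and 17.4% on chromosome 13 against 12.1% overall. The lost share of sites without UV was also highest on X, with 26.7% against 13.2% for the genome, and was 12.9% on chromosome 13. The lists as a whole were also sparse on both chromosomes. They had 41.4 to 52.5 peaks per Mbp on X and 82.3 to 96.6 on chromosome 13, against 168.4 to 182.8 on chromosome 1. The ratio of gained to lost sites was 1.16 overall and ranged from 0.981 on chromosome 18 to 2.21 on chromosome 13, where 85 sites were lost. On chromosome 13 the single lists held 89.2, 83.4 and 96.6 peaks per Mbp at 3 h and 82.3, 86.9 and 90.0 without UV, so that the conditions overlapped. Chromosome 16 came next with a ratio of 1.52.

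In windows of 1 Mb, gained and lost sites occurred side by side. Of 2921 windows, 2436 held a gained site, 2371 a lost site and 2221 both, and in 82.1% the numbers differed by at most 3. The median was 3 for each set. Across these windows the gained and lost counts had a Spearman coefficient of 0.532, given as a description since both sets come from the same 6 libraries. The window with the largest surplus was chr3:191000001-192000000, around OSTN and CCDC50, with 15 gained and 4 lost sites. It was followed by chr16:7000001-8000000 in RBFOX1 with 12 and 1, and by the gene-rich chr16:30000001-31000000, which includes MAPK3 and ALDOA, with 11 and 0. At the other end were chr14:67000001-68000000 with 2 gained and 11 lost, chr18:74000001-75000000 with 5 and 14, and chr9:101000001-102000000 with 1 and 9.

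Of 19970 protein-coding genes, 3649 held a gained site (18.3%), 3202 a lost site and 1406 both, which is 38.5% of the former and 43.9% of the latter. Genes with a gained site had a median length of 104 kb, against 27.5 kb for all. RBFOX1, a splicing regulator of neurons and muscle, held the most with 18 gained and 11 lost sites over 2474 kb. CTNNA3, an alpha-catenin of cell junctions, and DLG2, a synaptic scaffold, each held 13 gained sites, with 8 and 10 lost sites. NRXN3, a synaptic adhesion protein, held 11 gained and 10 lost sites. PCDH15, a protocadherin of the inner ear, held 10 of each.

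The largest surplus of gained over lost sites was in CTNND2, the neuronal delta-catenin, with 11 gained and 1 lost. GSE1, a partner of histone deacetylase complexes, followed with 10 and 1, RBFOX1 with 18 and 11, and FRMD4A, a scaffold of cell polarity, with 7 and 0. RBMS3 (an RNA-binding protein) had 11 and 5, SGCD (a sarcoglycan of muscle membrane) had 9 and 3, EXOC4 (an exocyst subunit) had 8 and 2, and SUPT3H (a subunit of the SAGA coactivator) had 6 and 0. The opposite extreme was NELL1, a secreted protein of bone formation, with 1 gained and 8 lost, then JMJD1C with 0 and 6 and SRGAP3 and KCNS3 with 1 and 6 each. All of these were picked as extremes among 19970 genes.

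Counting every peak instead of sites of 3 replicates made these genes look much more alike between conditions. CTNND2 held 234, 202 and 191 peaks in the 3 h lists and 202, 210 and 213 in the lists without UV. For GSE1 the counts were 145, 117 and 182 at 3 h and 126, 128 and 89 without UV. RBFOX1 had 642, 615 and 628 against 688, 586 and 579. In each of these 3 genes the conditions overlapped. NELL1 had 167, 159 and 150 peaks at 3 h and 181, 192 and 191 without UV, with every 3 h list below every list without UV.

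The list of 43 nucleotide excision repair genes (2.10 Mbp) had 10 gained sites in 7 genes and 13 lost sites in 11 genes, or 4.77 and 6.20 per Mbp, beside 4.02 and 3.45 per Mbp over all protein-coding genes. Of the 3-replicate sites in these genes, 13.5% were gained and 17.8% lost, beside 11.6% and 12.7% over all protein-coding genes. A gained site was present in 16.3% of the list and a lost site in 25.6%, beside 18.3% and 16.0% of all protein-coding genes. MNAT1, a subunit of the kinase module of TFIIH, held 3 gained and 2 lost sites. GTF2H5, the smallest core subunit of TFIIH, held 2 gained sites, and 5 genes held 1 each, among them ERCC2, the XPD helicase. Neither GTF2H5 nor ERCC2 held a lost site. GTF2H5 held 4, 7 and 9 peaks in the 3 h lists and 1, 5 and 2 in those without UV. MNAT1 held 38, 54 and 49 against 38, 54 and 52, and ERCC2 held 8, 4 and 7 against 7, 7 and 2. In each of these genes the ranges of the conditions overlapped. The list of 4 genes for ASH1L partners and the histone chaperone FACT had no gained site and 1 lost site, in 0.165 Mbp. It also held 11 kept sites at 3 h and 4 without UV. Its gained and lost shares, 0% and 20%, thus rest on few sites, beside 11.6% and 12.7% over all protein-coding genes.

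In the list of 22 targets of p53, the transcription factor activated by DNA damage, 4 genes held 5 gained sites and no gene held a lost site. A gained site was thus present in 18.2% of the list and in 18.3% of all protein-coding genes, and a lost site in 16.0% of all protein-coding genes. Gained sites numbered 6.70 per Mbp, beside 4.02 over all protein-coding genes. They were 13.9% of the 3-replicate sites in the list, beside 11.6%, and lost sites were 0%, beside 12.7%. ATF3, a stress-induced transcription factor, had 2 of the gained sites. MDM2, the ubiquitin ligase of p53, and TIGAR, a regulator of sugar metabolism, had 1 each. MDM2 held 13, 9 and 4 peaks in the 3 h lists and 5, 2 and 2 without UV, while ATF3 held 12, 17 and 13 against 6, 15 and 9 and TIGAR 10, 8 and 14 against 13, 10 and 15. The ranges overlapped in all 3 genes, and the whole list spans 0.746 Mbp.

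The 19 genes at common fragile sites, which are long genes prone to breakage under replication stress, held 86 gained and 89 lost sites in 29.2 Mbp. Their 2.95 gained sites per Mbp were below the 4.02 of all protein-coding genes, whereas the gained share of their 3-replicate sites, 17.1%, was above the 11.6% of all protein-coding genes. The lost share was 21.9%, beside 12.7%. All 322 protein-coding genes of at least 500 kb had 923 gained and 778 lost sites, 3.44 and 2.899 per Mbp, a ratio of 1.19 beside 1.17 for all protein-coding genes. The gained and lost shares of their 3-replicate sites, 15.6% and 16.4%, were also above those of all protein-coding genes. RBFOX1, CTNNA3 and DLG2 led both of these lists.

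The surplus of gained over lost sites depended on which lists were used. Leaving out 1 list at 3 h loosened the rule for gained sites and gave 31161 to 33003 gained and 15068 to 16744 lost sites. Leaving out 1 list without UV did the reverse, with 17787 to 21605 gained and 29180 to 31149 lost. When the same number was left out of both conditions, which keeps the rule balanced, the ratio of gained to lost sites was 1.26 without replicate 1, 1.12 without replicate 2 and 0.966 without replicate 3, so its direction turned once. Peaks with a −log10 p of at least 2 in every list gave 45 gained and 24 lost sites.

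**Figure D4:**
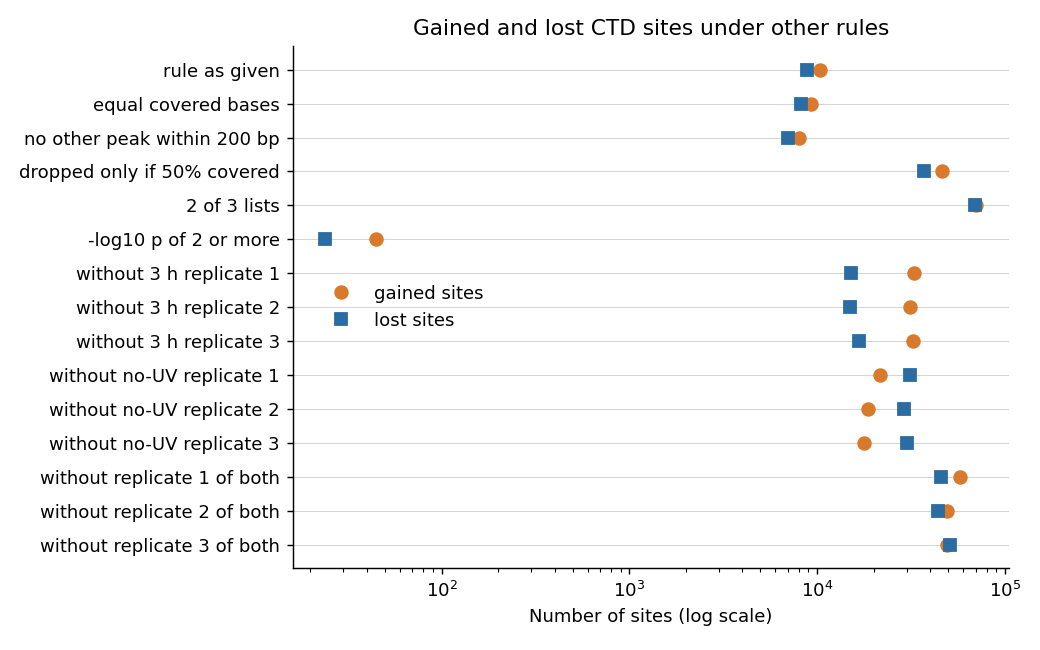
Number of gained (orange circles) and lost (blue squares) CTD sites on a log axis. Rows are the rule as given, other rules, single lists left out, and the same replicate number left out of both conditions. Gained sites outnumber lost sites under the rule as given (10337 and 8899) and whenever only a 3 h list is left out. They are outnumbered whenever only a list without UV is left out. With the same number left out of both conditions, gained sites are outnumbered only without replicate 3 (49476 and 51235).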

How the data were processed

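Broad peak lists from U2OS ChIP-seq were used, 6 for the CTD and 4 for H3K36me2. The authors trimmed reads with Trim Galore 0.6.5, aligned them to hg38 with BWA 0.7.17-r1188, filtered alignments and ran MACS2 2.2.7.1 on single replicates. Each deposited peak has a fold enrichment, the ratio of ChIP to control, and 2 strength columns, the −log10 p-value and the −log10 q-value. CTD controls were empty-vector libraries, and H3K36me2 controls were inputs pooled over duplicates. No depth is held in the lists, so precision rests on the spread between replicates.

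Peaks were merged where they shared at least 1 bp, and a site's centre decided its gene feature (GENCODE release 44), its 200-bp window and its H3K36me2 state. The members and gene lists were chosen with earlier results of these data known. Named were the 10 gained and 5 lost sites with the highest weakest-replicate fold enrichment, the 8 genes with most gained sites, the 8 with the largest and 4 with the smallest gained minus lost difference, the 3 highest and 3 lowest 1-Mb windows, and the 3 genes with most gained sites per list. CCDC50, OSTN, MAPK3 and ALDOA were named only to place their windows. The sequences of 5 of the 6 top gained sites are not reported here. Tests were two-sided exact permutation and sign-flip tests. The overlap functions were checked on simulated lists and against bedtools 2.31.1. Scripts ran in Python 3.11.15 (pandas 2.3.3, numpy 2.4.6, matplotlib 3.10.9).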

Additional observations from a re-analysis of the deposited data

How the results depend on the processing

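Restricting all lists to peaks with a −log10 p of at least 2 left 45 gained and 24 lost sites, a ratio of 1.88. Discarding a site only when at least 50% of it was covered gave 46597 gained and 37322 lost sites, and asking for a peak in at least 2 of 3 lists gave 70632 and 69334. Lists of equal coverage and a 200-bp margin kept the counts within a factor of 1.5. With 1 list at 3 h left out, gained sites ranged from 31161 to 33003 and lost sites from 15068 to 16744. With 1 list without UV left out, the ranges were 17787 to 21605 and 29180 to 31149. With number 1, 2 or 3 left out of both, there were 57852, 49251 and 49476 gained and 45968, 43879 and 51235 lost sites, since fewer lists must then hold or lack a peak. The ratio ranged from 0.591 to 2.17. It turned below 1 without replicate 1, 2 or 3 of the lists without UV (0.694, 0.639 and 0.591) and without replicate 3 of both conditions (0.966). Leaving out the same number of both conditions was added after seeing the data. The H3K36me2 differences kept their sign under every alternative run except that the change on gained sites was 0 with CTD peaks of −log10 p of at least 2. Leaving out single H3K36me2 lists gave −3.14 to −1.40 points for the change on gained sites and −0.808 to −0.476 points for gained minus lost sites. The held-out difference of gained sites stayed positive, from 1.61 to 5.07 points with single pairs left out. With peaks of −log10 p of at least 2 it was 1.89 points (exact permutation test, p = 0.1, the smallest possible). At 3 h the shares were then 4.05%, 5.58% and 5.76%, and without UV 3.95%, 2.60% and 3.16%, for replicates 1, 2 and 3. The held-out difference of lost sites was 0.0241 points by site centres and 1.05 points with peaks of −log10 p of at least 2. It ranged from −2.08 to 2.86 points with single pairs left out, the highest value being without replicate 3. The cause of these turns was not tested.

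The labels number the replicates in both conditions, but same-numbered CTD lists did not deviate together in 1-Mb windows. Their deviations from the condition means had r of −0.621, 0.325 and −0.776 for numbers 1, 2 and 3, while replicate 3 at 3 h and replicate 1 without UV had r of 0.756. With the replicate number as a block, the values were unchanged at −2.27 (H3K36me2 on gained sites), −0.691 (gained minus lost), 2.82 and −0.301 points (held-out gained and lost), with exact sign-flip permutation p of 0.5, 0.5, 0.5 and 1. The H3K36me2 numbers had r of −0.143, and the crossed pairing, added after seeing the data, made 0 calls, as did the pairing by number. The tests compare 2 or 3 lists per condition and none of them could pass 0.05.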
